A study of Mus musculus with 11 samples.

Results

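The genes described here are 8 genes of the neural crest and of the glia that descend from it: *Sox10*, *Sox9*, *Sox5*, *Sox8*, *Foxd3*, *Ets1*, *Erbb3* and *Ngfr*. They were chosen by name and matched by symbol to the Ensembl identifiers of the count files. All 8 were found among the 38561 genes counted, and all 8 passed the filter on low counts, which left 17317 genes to be tested.

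RNA was sequenced from facial processes (the mandibular and maxillary arches and the nasal processes) of mouse embryos at E10.5, all of mixed strain, in 11 libraries. The groups were wild type (wt, 2 libraries), embryos mutant for *Wnt9b* (Wnt9bKO, 3), embryos with the *Rspo2* null allele (Rspo2KO, 3) and embryos mutant for both genes (DKO, 3). The methods of the study give 3 samples per genotype, whereas 2 wild-type libraries were deposited. Whether each library came from a separate embryo or from pooled tissue is not given in the sources used here, so the p-values below measure the spread between libraries. The explants were whole processes with their epithelium, mesenchyme, nerves and vessels, so fewer cells of a type and less RNA per cell cannot be told apart.

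Cranial neural crest cells leave the dorsal neural tube, migrate into the facial processes and form the facial skeleton, much of the connective tissue, pigment cells, and the glia and some neurons of the cranial ganglia. FOXD3, ETS1 and the SOXE factors SOX8, SOX9 and SOX10 act early in this lineage, after which SOX10 is kept in glial and pigment precursors and SOX9 in cells that form cartilage. *Erbb3* and *Ngfr* code for surface receptors of migrating crest and Schwann cell precursors, and WNT ligands such as WNT9B, with R-spondins such as RSPO2 that raise WNT signaling, come from or act on the tissues around these cells.

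The wt libraries held 11136166 and 16764595 counts on genes. The Wnt9bKO libraries held 17156003, 16815155 and 16948615 counts, and the Rspo2KO libraries 13220768, 17455921 and 15802301. The DKO libraries held 16266505, 15821745 and 18017344. Levels are in CPM, a gene's share of the TMM-scaled total of its library. At these depths the limit that a count of 0 allows (3 counts) lay between 0.16 and 0.268 CPM, which covers counting error only. *Foxd3* was the gene of lowest level, with 21 to 49 counts in a library, and the other 7 genes lay well above this limit.

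The targeted genes were examined first. *Rspo2* was at 14.8 and 16.0 CPM in the wt libraries, at 22.8, 2.86 and 18.1 in those labelled Wnt9bKO, at 6.59, 4.80 and 4.74 in those labelled Rspo2KO, and at 4.17, 3.68 and 15.5 in those labelled DKO. The library labelled Wnt9bKO 2 thus had an *Rspo2* level below all 3 Rspo2KO libraries, and the library labelled DKO 3 a level like wt, so both counts went against their labels. *Wnt9b* was at 10.8 and 13.4 CPM in wt, 23.3, 16.3 and 16.2 in Wnt9bKO, 14.4, 16.7 and 12.9 in Rspo2KO, and 18.3, 20.2 and 19.9 in DKO. Its transcript was thus not lower in the libraries mutant for *Wnt9b*, and its counts could not serve to check that label. Each comparison below is given by label, and the calls of the members with and without the libraries labelled Wnt9bKO 2 and DKO 3.

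The groups also differed in sex and in library composition. The level of *Xist*, the RNA that coats an inactive X chromosome, reached 1332, 1040 and 1469 CPM in DKO and 679.6 and 906 in wt, against 0.821 to 1.94 in the Wnt9bKO and Rspo2KO libraries. The Y-linked *Ddx3y* was at 57.6 to 75.7 CPM in the Wnt9bKO and Rspo2KO libraries, at 1.07 and 0.121 in wt, and at 0.0587, 0.125 and 4.43 in DKO. The libraries labelled Wnt9bKO 2 (*Xist* 1.85, *Ddx3y* 68.2) and DKO 3 (*Xist* 1469, *Ddx3y* 4.43) were each on the side of their labelled group, though *Ddx3y* in DKO 3 was above the other DKO libraries. Whether these libraries carry the wrong label was not tested further. Sex and genotype cannot be told apart in Wnt9bKO against wt or in Rspo2KO against wt. Small nuclear RNA genes summed to 352 and 353 CPM in wt and to 386, 419.6 and 412 in Rspo2KO, but to 74.8, 80.5 and 78.9 in Wnt9bKO and 81.1, 70.1 and 82.7 in DKO. How the libraries were made and whether *Wnt9b* was mutant cannot be told apart here either. The genes tested were split into 5 equal parts by exon length. In each library the median log2 deviation from the mean of all libraries was taken in the longest part minus the shortest. This difference was -0.22 and -0.23 in wt, and 0.10, 0.17 and 0.10 in Wnt9bKO. It was -0.001, -0.22 and -0.12 in Rspo2KO, and 0.12, 0.11 and 0.07 in DKO. For 5 parts by GC content, the highest minus the lowest, the same measure was 0.068 and 0.134 in wt, and 0.214, -0.137 and -0.147 in Wnt9bKO. It was 0.099, 0.043 and -0.099 in Rspo2KO, and -0.022, 0.012 and -0.165 in DKO. Wnt9bKO 1 thus stood apart from Wnt9bKO 2 and Wnt9bKO 3 in GC content. The members span a range of lengths and of GC content, so each fold change was also computed with an offset for both.

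All 8 members are protein coding and lie on 8 different stretches of the mouse genome (GRCm38). *Sox10* (ENSMUSG00000033006) lies at chr15:79154908-79165240 and *Ngfr* (ENSMUSG00000000120) at chr11:95568818-95587735. *Sox9* (ENSMUSG00000000567) lies at chr11:112782224-112787760 and *Sox5* (ENSMUSG00000041540) at chr6:143828425-144781977. *Foxd3* (ENSMUSG00000067261), *Sox8* (ENSMUSG00000024176), *Ets1* (ENSMUSG00000032035) and *Erbb3* (ENSMUSG00000018166) lie on chromosomes 4, 17, 9 and 10. The summed exons ran from 2324 bases in *Foxd3* to 14376 in *Sox5*, against a median of 4015 over the genes tested. GC content ran from 44.8% in *Sox5* to 65.1% in *Foxd3*, against a median of 49.6%, with *Sox10* at 61.8% and *Ngfr* at 58.6% above the upper quartile of 54.3%. *Sox5* overlaps 5 annotated antisense transcripts and 1 on its own strand in an intron, *Sox8* overlaps 1 antisense transcript, a miRNA gene lies within *Foxd3*, and the strand setting of the counting is not given in the sources used here, so reads of these transcripts cannot be told apart from those of the genes.

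Compared per kilobase of exon, the order of the members in wt was *Ets1* (9.12 ± 0.425 CPM per kb, mean ± SD, n = 2), *Ngfr* (9.08 ± 0.775), *Sox9* (8.87 ± 0.105), *Sox10* (5.41 ± 0.361), *Sox5* (5.16 ± 0.327), *Erbb3* (5.12 ± 0.475), *Sox8* (4.14 ± 0.226) and *Foxd3* (0.935 ± 0.0361). The 3 genes at the top lay within their spread of each other, as did *Sox10*, *Sox5* and *Erbb3*. *Foxd3* was well below every other member, by more than the spread between libraries.

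**Figure D1:**
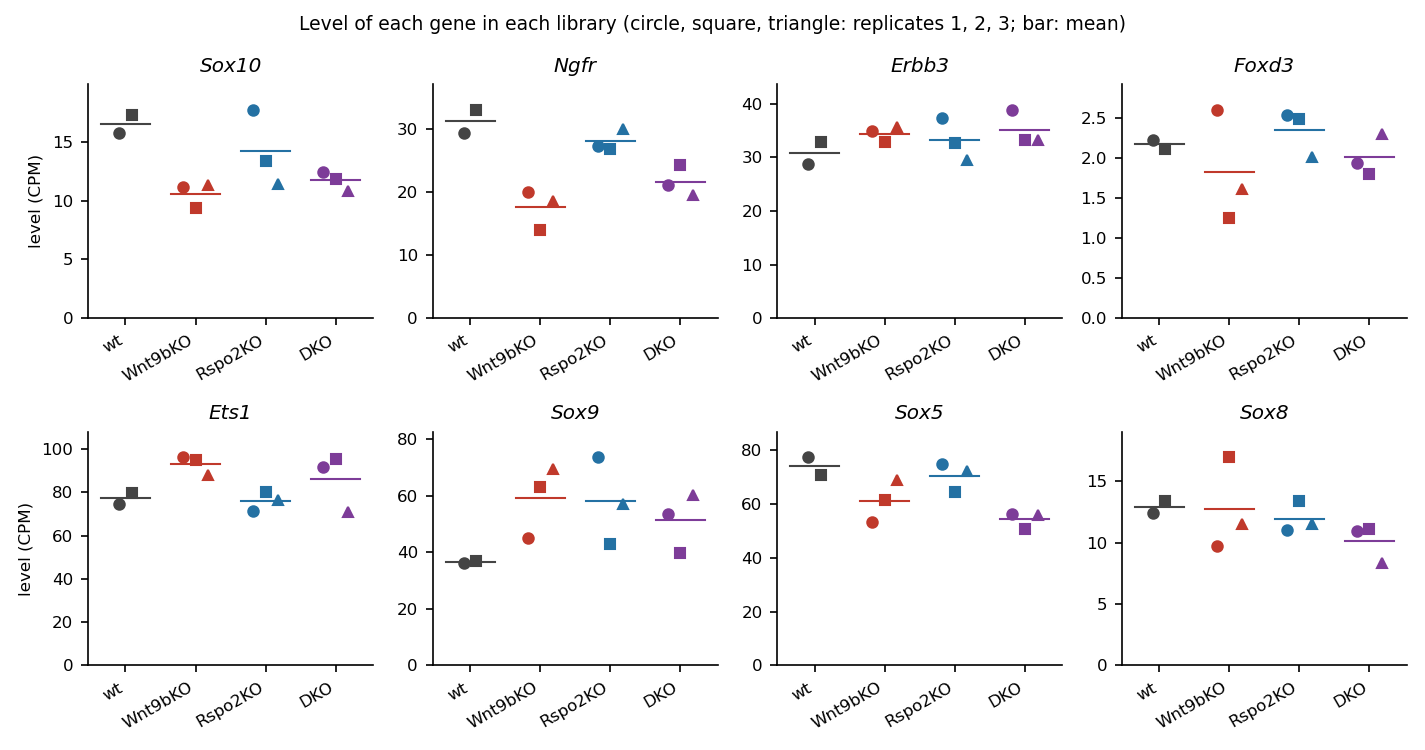
Level of each of the 8 genes (vertical axis, CPM from 0) in each of the 11 libraries, by genotype; a point is a library, its shape the replicate number, and a bar the group mean. The Wnt9bKO and DKO libraries of *Ngfr* lie between 14.1 and 24.4 CPM, below both wt libraries at 29.4 and 33.2.

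The first comparison, Wnt9bKO against wt, asks which members differ when WNT9B is lost. *Ngfr* and *Sox10* were lower in Wnt9bKO, and *Sox9* was higher. These 3 of the 8 members (1 higher and 2 lower) passed an adjusted p below 0.05 (edgeR quasi-likelihood test, Benjamini-Hochberg over all genes tested). *Erbb3*, like *Ngfr* a receptor of Schwann cell precursors, did not pass (log2 fold change 0.16). Over all genes tested 32.8% passed, 16.8% higher and 16% lower, so 3 of 8 members is a share near that of all genes. The median log2 fold change was -0.13 for the members and 0.01 for all genes tested. Without the libraries labelled Wnt9bKO 2 and DKO 3, *Ngfr* and *Sox10* passed and *Sox9* did not.

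*Ngfr* codes for the low-affinity neurotrophin receptor p75, a surface marker of migrating crest and Schwann cell precursors. Its level was 29.4 and 33.2 CPM in wt, 20.1, 14.1 and 18.6 in Wnt9bKO, 27.4, 27.0 and 30.01 in Rspo2KO, and 21.2, 24.4 and 19.6 in DKO. Every Wnt9bKO and DKO library was below every wt and Rspo2KO library, and Wnt9bKO 2 was the lowest of all. *Ngfr* fell in Wnt9bKO to 0.562 of wt (log2 fold change -0.83, SE 0.15, adjusted p = 0.000954). It passed without each of the 11 libraries in turn and under every alternative but a test against a 1.5-fold change, where its adjusted p was 0.185. With a single library left out its adjusted p ran from 0.000594 to 0.0181, and over the other settings from 3.47e-06 to 0.00651. Here and below, the other settings are the alternatives apart from that test and from leaving out a single library. Without the libraries labelled Wnt9bKO 2 and DKO 3 the log2 fold change of *Ngfr* was -0.70 (adjusted p = 0.00271).

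*Sox10* codes for the SOXE factor that glial and pigment precursors need. Its level was 15.7 and 17.3 CPM in wt, 11.1, 9.36 and 11.3 in Wnt9bKO, 17.8, 13.4 and 11.4 in Rspo2KO, and 12.4, 11.8 and 10.9 in DKO. The Wnt9bKO and DKO libraries were all below wt, whereas the Rspo2KO libraries ran from above wt down to the level of the other mutants. *Sox10* fell in Wnt9bKO to 0.642 of wt (log2 fold change -0.64, SE 0.175, adjusted p = 0.0124). The call was lost with the offset for GC content and length (log2 fold change -0.44, adjusted p = 0.0704), with that offset and the replicate number together (-0.42, adjusted p = 0.0997), and without wt 2 (-0.57, adjusted p = 0.101). The adjusted p of *Sox10* was 0.712 in the test against a 1.5-fold change, ran from 0.00387 to 0.0997 over the other settings, and was 0.042 without the libraries labelled Wnt9bKO 2 and DKO 3.

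*Sox9* codes for the SOXE factor that starts cartilage formation in crest-derived mesenchyme. Its level was 36.4 and 37.0 CPM in wt, 44.9, 63.2 and 69.6 in Wnt9bKO, 73.8, 43.0 and 57.2 in Rspo2KO, and 53.4, 39.9 and 60.4 in DKO. All 9 mutant libraries were above both wt libraries, but they spread widely within each genotype while the wt libraries were close together. *Sox9* rose in Wnt9bKO to 1.61 times wt (log2 fold change 0.69, SE 0.226, adjusted p = 0.0299). The call was lost without wt 1 (log2 fold change 0.68, adjusted p = 0.156), wt 2 (0.70, adjusted p = 0.129), Wnt9bKO 2 (0.67, adjusted p = 0.0611) or Wnt9bKO 3 (0.58, adjusted p = 0.0915), while the difference stayed near its size with all libraries. The call of *Sox9* was also lost with the replicate number as a block (log2 fold change 0.60, adjusted p = 0.0506), with block and offset together (0.61, adjusted p = 0.0556), and without the libraries labelled Wnt9bKO 2 and DKO 3 (0.64, adjusted p = 0.0604). The adjusted p of *Sox9* was 0.628 in the test against a 1.5-fold change and ran from 5.61e-05 to 0.0604 over the other settings.

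*Sox5* and *Ets1* had an unadjusted p below 0.05 in Wnt9bKO against wt, at 0.0349 and 0.0455, without passing after adjustment. *Sox5*, a SOXD factor that works with SOX9 in cartilage, had a log2 fold change of -0.28 (SE 0.119, adjusted p = 0.0881). It passed with the offset for GC content and length (log2 fold change -0.59, adjusted p = 0.000805), with that offset and the replicate number together (-0.63, adjusted p = 0.000845), and with the replicate number alone (-0.32, adjusted p = 0.0467). The adjusted p of *Sox5* ran up to 0.156 over the other settings and to 0.376 with a single library left out. *Ets1*, a factor of cranial crest and of endothelium, was at 74.8 and 79.9 CPM in wt and at 96.5, 94.97 and 88.2 in Wnt9bKO. These groups did not overlap, with a log2 fold change of 0.27 (SE 0.123, adjusted p = 0.108). Those of *Erbb3* did not overlap either (unadjusted p = 0.225 in edgeR). How many of all genes separate in this way was not counted. A lack of overlap, in any comparison, thus only describes the libraries. *Ets1* passed with the replicate number as a block (log2 fold change 0.32, adjusted p = 0.0415), and over the other settings its adjusted p reached 0.58.

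*Sox8*, *Foxd3* and *Erbb3* did not pass in any comparison under any alternative. *Erbb3*, the neuregulin receptor of glial precursors, stayed between 28.8 and 38.9 CPM over all 11 libraries, and its 6 Wnt9bKO and DKO libraries, at 32.9 to 38.9, were above wt at 28.8 and 32.8. Its log2 fold change in Wnt9bKO was 0.16 (95% interval -0.11 to 0.43), while *Ngfr*, which marks many of the same cells, fell. *Foxd3*, which keeps crest cells undifferentiated, ran from 1.25 to 2.61 CPM, both found in Wnt9bKO libraries. At its 21 to 49 counts the 95% interval of the log2 fold change in Wnt9bKO was -0.88 to 0.41, which includes both 0 and the -0.83 of *Ngfr*. *Sox8*, the SOXE factor with the mildest known role in crest, was at 9.69, 17.0 and 11.5 CPM in Wnt9bKO around 12.4 and 13.4 in wt.

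**Figure D2:**
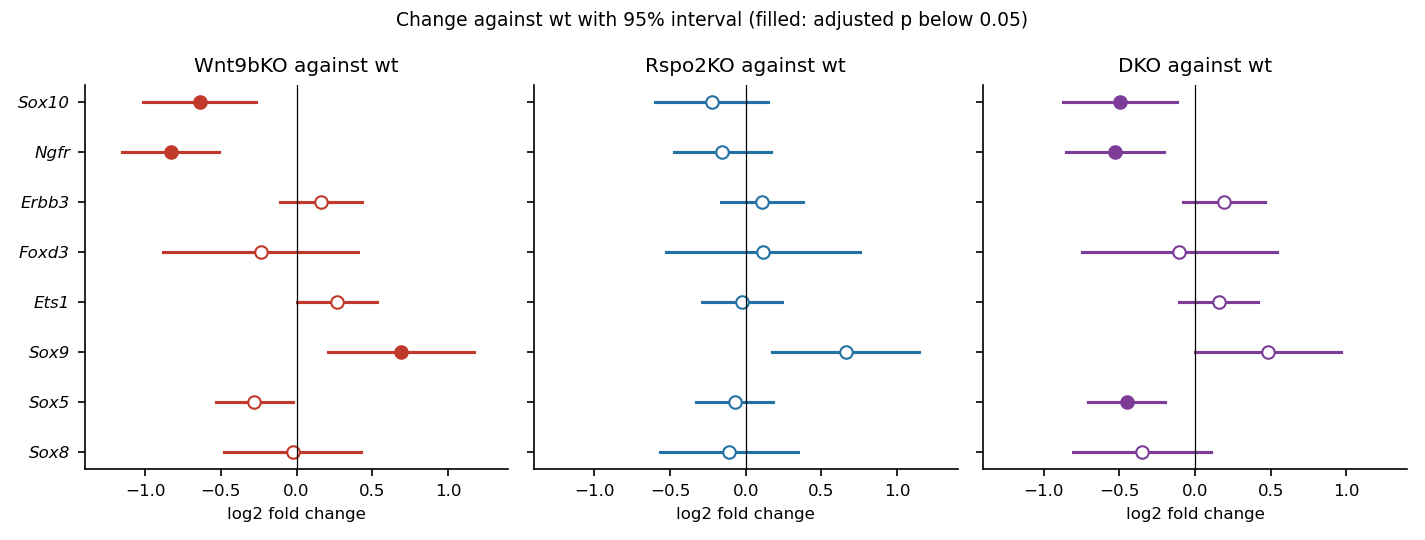
Log2 fold change against wt (horizontal axis) of each of the 8 genes in Wnt9bKO, Rspo2KO and DKO; a point is the estimate, its line the 95% interval, and a filled point an adjusted p below 0.05. *Sox10* and *Ngfr* are filled on the lower side in Wnt9bKO and DKO, *Sox9* is filled on the higher side in Wnt9bKO, *Sox5* on the lower side in DKO, and no point is filled in Rspo2KO.

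Rspo2KO against wt asks the same of RSPO2. None of the 8 members passed with edgeR, where 0.0346% of all genes tested did (0.0814% without Rspo2KO 2). DESeq2 also called 0, where it called 1.55% of all genes. With autosomal coding genes alone, edgeR called 0 of the 14026 genes tested, so 0 of 8 does not set the members apart. A single member, *Sox9*, had an unadjusted p below 0.05. Its log2 fold change was 0.66 (SE 0.226, unadjusted p = 0.011, adjusted p = 0.283), about as large as in Wnt9bKO, and its Rspo2KO libraries did not overlap wt. The call depended on the genes tested, since *Sox9* passed with no filter on low counts (adjusted p = 0.00162, where 2.04% of all genes passed, against 0.308 as the highest value over the other settings and 0.978 with a single library left out). The other 7 members had log2 fold changes from -0.23 in *Sox10* to 0.11 in *Foxd3*. *Ngfr* had a log2 fold change of -0.16 in Rspo2KO (95% interval -0.47 to 0.17), an interval that leaves out its -0.83 in Wnt9bKO. Leaving out the libraries labelled Wnt9bKO 2 and DKO 3 gave 0 calls as well.

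DKO against wt asks what the loss of both genes does, and here both groups had high *Xist*. *Ngfr*, *Sox10* and *Sox5* were lower in DKO. These 3 of 8 members passed, all lower, where 27.5% of all genes tested passed, 14.3% higher and 13.1% lower. The median log2 fold change was -0.23 for the members against 0.01 for all genes tested. Without the libraries labelled Wnt9bKO 2 and DKO 3, *Ngfr* and *Sox5* passed and *Sox10* did not.

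*Sox5* was at 77.4 and 70.8 CPM in wt, 53.1, 61.5 and 68.7 in Wnt9bKO, 74.6, 64.4 and 72.3 in Rspo2KO, and 56.0, 50.7 and 55.9 in DKO. The DKO libraries were close together and below all wt and Rspo2KO libraries. *Sox5* fell in DKO to 0.732 of wt (log2 fold change -0.45, SE 0.12, adjusted p = 0.0124). Leaving out wt 1 ended the call (log2 fold change -0.39, adjusted p = 0.123), while the offset for GC content and length made the difference larger (-0.74, adjusted p = 0.000203). *Sox5* did not meet the rule of the study (p below 0.05 and more than a 1.5-fold change), and its adjusted p was 1 in the test against a 1.5-fold change. Over the other settings the adjusted p of *Sox5* ran from 0.000203 to 0.0241, the latter without the libraries labelled Wnt9bKO 2 and DKO 3 (log2 fold change -0.48).

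*Ngfr* fell in DKO to 0.693 of wt (log2 fold change -0.53, SE 0.15, adjusted p = 0.0176). The call was lost with the offset for GC content and length (log2 fold change -0.37, adjusted p = 0.0552) and with that offset and the replicate number together (-0.40, adjusted p = 0.0539), and the lowest adjusted p was 0.00589. *Ngfr* in DKO did not meet the rule of the study either, and its adjusted p was 1 in the test against a 1.5-fold change. It was also lost without wt 2 (adjusted p = 0.15), DKO 1 (adjusted p = 0.0551) or DKO 3 (adjusted p = 0.0537). Without the libraries labelled Wnt9bKO 2 and DKO 3, *Ngfr* passed with a log2 fold change of -0.46 (adjusted p = 0.024).

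*Sox10* fell in DKO to 0.709 of wt (log2 fold change -0.50, SE 0.175, adjusted p = 0.0473), close to the threshold. It passed under 4 of the 13 alternatives, with an adjusted p of 1 in the test against a 1.5-fold change and from 0.0113 to 0.239 over the other settings. Its log2 fold change with the offset for GC content and length was -0.32 (adjusted p = 0.196). The call was also lost with the replicate number as a block (-0.46, adjusted p = 0.0648). Leaving out a single library ended the call for 8 of the 11 libraries: wt 1 (adjusted p = 0.113), wt 2 (0.239), Wnt9bKO 2 (0.0556), Wnt9bKO 3 (0.0734), Rspo2KO 2 (0.0741), DKO 1 (0.075), DKO 2 (0.0939) and DKO 3 (0.115). The log2 fold change of *Sox10* stayed between -0.57 and -0.43 with any library left out. Without the libraries labelled Wnt9bKO 2 and DKO 3 the log2 fold change of *Sox10* was -0.45 (adjusted p = 0.101).

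The other 5 members did not pass in DKO against wt. *Sox9* had a log2 fold change of 0.48 (SE 0.225, adjusted p = 0.127) with no overlap with wt. *Sox9* passed with no filter on low counts (adjusted p = 0.00801) and in a fit of these 2 groups alone (adjusted p = 0.0347), and its adjusted p reached 0.318 over the other settings and 0.357 with a single library left out. *Sox8* was at 10.98, 11.1 and 8.38 CPM in DKO, below both wt libraries, with a log2 fold change of -0.35 (SE 0.213, adjusted p = 0.243). *Erbb3*, *Ets1* and *Foxd3* had log2 fold changes of 0.19, 0.16 and -0.10.

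**Figure D3:**
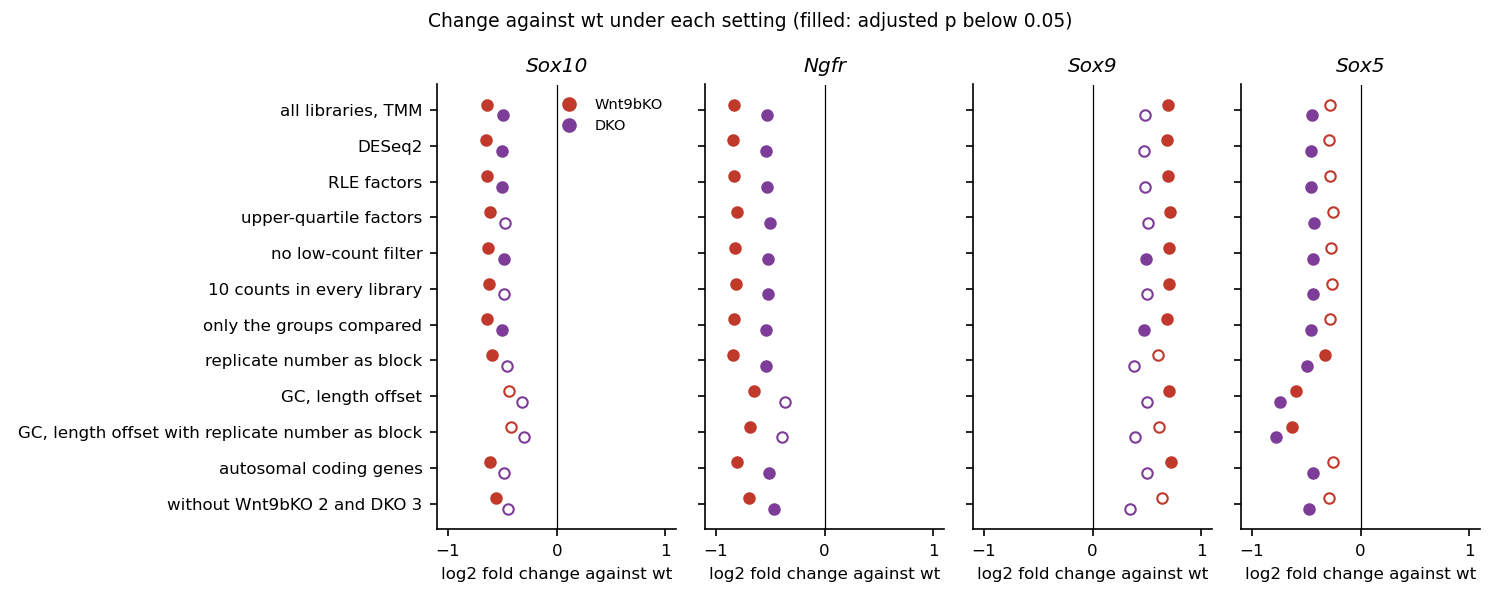
Log2 fold change against wt (horizontal axis) of *Sox10*, *Ngfr*, *Sox9* and *Sox5* in Wnt9bKO and DKO under each way of fitting (vertical axis); a filled point has an adjusted p below 0.05. Every point keeps its side of 0, *Sox10* and *Ngfr* come closer to 0 with the offset for GC content and length, and *Sox5* goes farther from it.

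DKO against Wnt9bKO asks what the loss of RSPO2 adds to that of WNT9B. None of the 8 members passed with edgeR or with DESeq2 (0 calls each), where 0.121% of all genes tested passed with edgeR and 0.476% with DESeq2. *Ngfr* alone had an unadjusted p below 0.05 (log2 fold change 0.30, SE 0.137, unadjusted p = 0.0439, adjusted p = 0.864), and its levels in the DKO libraries overlapped those in Wnt9bKO. The median log2 fold change of the members was -0.04 against 0.00 for all genes tested. These groups differ in sex, and each holds 1 of the libraries whose *Rspo2* count goes against its label. Without that pair of libraries no member passed and *Ngfr* had a log2 fold change of 0.23 (adjusted p = 0.998).

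DKO against Rspo2KO asks what the loss of WNT9B adds to that of RSPO2. *Sox5* was lower in DKO (log2 fold change -0.38, SE 0.108, adjusted p = 0.0251). It was the single member of 8 that passed, where 18.2% of all genes tested passed, 9.15% higher and 9.07% lower. The share over all genes, in either direction, ran from 9.75% to 23.2% with a single library left out. The DKO libraries of *Sox5*, at 50.7 to 56.0 CPM, did not overlap those of Rspo2KO, at 64.4 to 74.6. *Xist* was high in DKO and *Ddx3y* in Rspo2KO, so sex and genotype cannot be told apart here either. The call of *Sox5* was lost without Rspo2KO 1 (adjusted p = 0.0504), Rspo2KO 3 (adjusted p = 0.0904), DKO 1 (adjusted p = 0.061) or DKO 2 (adjusted p = 0.108). It was also lost without the libraries labelled Wnt9bKO 2 and DKO 3 (log2 fold change -0.39, adjusted p = 0.0521, the highest over the other settings, which began at 0.0025), by the rule of the study, and in the test against a 1.5-fold change (adjusted p = 1). *Ngfr* did not overlap between these groups either, with a log2 fold change of -0.37 (SE 0.135, adjusted p = 0.0704). *Ngfr* passed in a fit of these 2 groups alone (adjusted p = 0.0444), without Wnt9bKO 1 (adjusted p = 0.0442) and without Wnt9bKO 2 (adjusted p = 0.0406), and its adjusted p reached 0.123 over the other settings and 0.219 with a single library left out. *Ets1* passed without DKO 3 (log2 fold change 0.30, adjusted p = 0.0493), against 0.18 (adjusted p = 0.287) with all libraries.

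Wnt9bKO against Rspo2KO compares the single mutants, in both of which *Ddx3y* was high. *Ngfr* was lower in Wnt9bKO (log2 fold change -0.68, SE 0.136, adjusted p = 0.0026). It was the single member of 8 that passed, where 26% of all genes tested passed, 12.5% higher and 13.5% lower. The share over all genes, in either direction, ran from 15.2% to 30.6% with a single library left out. *Ngfr* passed without each of the 11 libraries in turn, and without the libraries labelled Wnt9bKO 2 and DKO 3 (log2 fold change -0.53, adjusted p = 0.0101). *Sox10* had a log2 fold change of -0.41 (adjusted p = 0.0679), and it passed without Rspo2KO 3 (-0.55, adjusted p = 0.0354). *Ets1* had a log2 fold change of 0.29 (adjusted p = 0.0619). *Ets1* passed with at least 10 counts asked in every library (adjusted p = 0.0479), with the replicate number as a block (0.0412), with autosomal coding genes alone (0.0408) and without DKO 3 (0.0236), while its adjusted p reached 0.191 over the other settings. *Sox5* passed with the offset for GC content and length (log2 fold change -0.33, adjusted p = 0.0153), against -0.21 (adjusted p = 0.176) without it. *Sox9* was at like levels in the single mutants, with a log2 fold change of 0.03 (95% interval -0.39 to 0.45).

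The interaction asks whether DKO differs from the sum of the changes in the single mutants. None of the 8 members passed with edgeR or with DESeq2 (0 calls each), where 0.0635% of all genes tested passed with edgeR and 0.264% with DESeq2. With autosomal coding genes alone, edgeR called 0 of the 14026 genes tested. *Sox9* and *Ngfr* had an unadjusted p below 0.05. *Sox9* was 0.87 log2 units below the sum of its increases in the single mutants (interaction -0.87, SE 0.298, unadjusted p = 0.0111, adjusted p = 0.435), and it passed with no filter on low counts (adjusted p = 0.00302, where 1.24% of all genes passed, against 0.526 as the highest over the other settings and 0.921 with a single library left out). *Ngfr* was above the sum (interaction 0.46, SE 0.203, unadjusted p = 0.04, adjusted p = 0.503). Since wt and DKO differ in sex from both single mutants, an effect of sex falls into this term and cannot be told apart from an interaction. Without the libraries labelled Wnt9bKO 2 and DKO 3 the interaction was -0.94 for *Sox9* (adjusted p = 0.526) and 0.40 for *Ngfr* (adjusted p = 0.603).

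The study called genes with p below 0.05 and more than a 1.5-fold change in DESeq2 results, and its methods do not say whether that p was adjusted. By these thresholds, read here as an unadjusted p and applied to the p and fold change of edgeR, the members called were *Sox10*, *Sox9* and *Ngfr* in Wnt9bKO against wt, where 24.8% of all genes tested met the rule. *Sox9* met it in Rspo2KO against wt (4.68% of all genes) and in the interaction (5.85%), and *Ngfr* in Wnt9bKO against Rspo2KO (16.9%). No member met it in DKO against wt (20.4%), DKO against Wnt9bKO (2.93%) or DKO against Rspo2KO (12.2%), where edgeR at an adjusted p below 0.05 called 3, 0 and 1, DESeq2 3, 0 and 1, and 4, 1 and 2 members had an unadjusted p below 0.05. Over all genes tested an unadjusted p below 0.05 was reached by 43.3% in Wnt9bKO against wt, 11.9% in Rspo2KO against wt, 39.1% in DKO against wt, 5.63% in DKO against Wnt9bKO, 31.4% in DKO against Rspo2KO, 38.2% in Wnt9bKO against Rspo2KO and 9.45% in the interaction. A test against a 1.5-fold change (glmTreat in edgeR) called 0 members in every comparison. It called 4.82% of all genes in Wnt9bKO against wt, 0.0346% in Rspo2KO against wt, 3.2% in DKO against wt, 0.052% in DKO against Wnt9bKO, 1.78% in DKO against Rspo2KO, 2.66% in Wnt9bKO against Rspo2KO and 0.0346% in the interaction.

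The members were also compared with each other over the 11 libraries, as deviations from the mean of their genotype. *Sox10* and *Erbb3* varied together within genotypes (r = 0.88, and 0.80 to 0.93 when a library was left out), although their levels over all libraries had r = 0.00. *Sox9* and *Sox5* did the same (r = 0.87, and 0.82 to 0.91 with a library left out), against 0.10 over all libraries. *Sox10* and *Ngfr* had r = 0.28 within genotypes, which ran from -0.07 to 0.60 with a library left out, and 0.80 over all libraries. *Sox8* and *Foxd3* had r = -0.81, and *Sox9* and *Ets1* r = -0.69. These values are a description over n = 11 libraries that share their genotype groups and their trends with length and GC content. Of 14854 genes with enough counts, those with deviations most like *Sox10* were *Crtap* (r = 0.981), *Sorbs3* (0.977), *Disp1* (0.965), *Pde4a* (0.957) and *Gramd1b* (0.949). Over all libraries the levels of these genes had r = -0.59, -0.53, -0.58, -0.08 and -0.12 with *Sox10*, so the likeness held only within genotypes. Those most like *Sox9* were *Apc* (0.98), *Frs2* (0.973), *Slc13a1* (0.967), *Ppp2r2a* (0.965) and ENSMUSG00000090663 (0.965), for which the annotation used has no symbol, and over all libraries their r with *Sox9* was 0.81 to 0.87.

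Promoter sequence was at hand for 4 of the 8 members, *Sox5*, *Sox8*, *Foxd3* and *Ngfr* (RefSeq, GRCm38.p6). Those of *Ngfr* and *Sox5*, the members lower in DKO whose promoters were at hand, are shown 5′ to 3′ from 250 to 51 bases before the RefSeq start, 200 bases each. That of *Ngfr* is chr11:95587749-95587948 on the minus strand, and that of *Sox5* is chr6:143947157-143947356 on the minus strand, which puts the RefSeq start used inside the *Sox5* gene. Capitals mark matches to a motif.
Ngfr: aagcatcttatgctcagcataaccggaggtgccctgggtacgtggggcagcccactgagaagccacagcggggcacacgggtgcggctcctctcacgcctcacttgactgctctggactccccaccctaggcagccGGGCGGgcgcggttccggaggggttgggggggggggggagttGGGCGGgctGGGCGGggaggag
Sox5: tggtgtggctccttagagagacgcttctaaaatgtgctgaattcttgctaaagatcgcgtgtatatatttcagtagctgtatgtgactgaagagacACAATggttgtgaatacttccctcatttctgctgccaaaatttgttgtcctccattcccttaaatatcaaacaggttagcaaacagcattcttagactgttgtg
The motifs searched on both strands were the SOX core ACAAT, the TCF/LEF motif ATCAAAG and the GC box GGGCGG, none of which overlaps another. *Ngfr* held 3 GC boxes in a window of 70% GC, and *Sox5* held 1 SOX core in a window of 40% GC, against a median of 51.5% GC. *Sox8* held 1 GC box, *Foxd3* held no match, and none of the 4 windows held the TCF/LEF motif. Of all 32851 windows of this length, 23.7% held the SOX core, 2.64% the TCF/LEF motif and 24.6% the GC box, so the matches are a description of the letters only.

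Lists of related genes, which hold none of the 8 members, were set beside them. Over all genes tested, 16.8% were higher and 16% lower in Wnt9bKO, and 14.3% higher and 13.1% lower in DKO. The other genes of the SOX family were higher in Wnt9bKO for 7 of 14 tested and lower for 0, with a median log2 fold change of 0.85. The endothelial factor *Sox7* (log2 fold change 1.395) and *Sox6* (0.94), the closest relative of *Sox5*, were among them, so *Sox6* rose where *Sox5* did not pass. In DKO the SOX family again had 7 higher and 0 lower, with *Sox7* at 1.398 and *Sox6* at 0.84. Relatives of *Foxd3* and *Ets1* (FOXD and ETS families) were higher for 6 and lower for 1 of 19 tested in both comparisons, among them the ETS factors *Gabpa* (0.89 in Wnt9bKO and 0.94 in DKO) and *Elk4* (1.099 and 1.04). *Fli1*, the ETS factor of endothelium and the highest of that list per kb in wt, fell in Wnt9bKO (log2 fold change -0.48, adjusted p = 0.0161).

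Crest specifiers other than the members were higher for 4 and lower for 3 of 28 in Wnt9bKO (25% called, against 32.8% of all genes). In DKO they were higher for 3 and lower for 3 (21.4% called, against 27.5%). The first split was not stable, with 7 higher and 2 lower without the libraries labelled Wnt9bKO 2 and DKO 3, and 6 higher and 2 lower with the offset for GC content and length. *Tfap2b*, a factor of early crest, rose in both (log2 fold change 0.73 and 0.72), as did the cadherin *Cdh6* (0.91 and 0.74). *Id3*, an inhibitor of bHLH factors and the highest of the list per kb in wt, fell in both (-0.46 and -0.61). The proliferation factor *Mycn* fell in DKO (-0.56, adjusted p = 0.00241). Its level was 135.7 and 126.4 CPM in wt, 83.4, 101.2 and 84.0 in Wnt9bKO, and 86.9, 97.8 and 81.0 in DKO. Genes of Schwann cell precursors and satellite glia were higher for 4 and lower for 2 of 22 tested in Wnt9bKO (27.3% called, against 32.8% of all genes). In DKO they were higher for 3 and lower for 1 (18.2% called, against 27.5%). *Fabp7*, a fatty acid binding protein of glial precursors, fell with *Ngfr* and *Sox10* in Wnt9bKO (log2 fold change -1.21, adjusted p = 0.00106) and had -0.23 in DKO (adjusted p = 0.468). *Ptprz1*, a receptor phosphatase of glial and neural precursors, rose in both (log2 fold change 0.93 in Wnt9bKO and 1.005 in DKO). *Pmp22*, a protein of peripheral myelin that mesenchyme also makes, rose in DKO (1.16). Its level was 4.82 and 5.38 CPM in wt and 11.2, 8.35 and 10.9 in Wnt9bKO. The glial genes called thus went both ways, and their share was not above that of all genes. Neuregulin and ERBB genes around *Erbb3* were higher for 2 and lower for 2 of 14 tested in both comparisons (28.6% called in each, against 32.8% and 27.5% of all genes). The adaptors *Shc1* (-0.69 in Wnt9bKO and -0.70 in DKO) and *Grb2* (-0.65 and -0.62) were lower. Among 16 neurotrophin genes around *Ngfr*, 0 were higher and 2 lower in Wnt9bKO (12.5%, where 16% of all genes were lower). DESeq2 called 2, and 3 had an unadjusted p below 0.05, where 43.3% of all genes did. The 2 lower with edgeR were *Bex3* (log2 fold change -0.98, adjusted p = 0.00014) and *Maged1* (-0.34, adjusted p = 0.0326), both of which code for proteins that bind p75. The count lower was 1 with the offset for GC content and length, and 1 without the libraries labelled Wnt9bKO 2 and DKO 3. In DKO 1 of the 16 was higher and 1 lower, the neurotrophin receptor *Ntrk2* (log2 fold change 0.62, adjusted p = 0.0106) and *Bex3* (-0.85).

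Cartilage genes and SOX9 partners were higher for 2 and lower for 0 of 16 tested in Wnt9bKO (12.5%, where 16.8% of all genes were higher). These were *Col2a1* (log2 fold change 0.65) and *Col27a1* (0.61), collagens of cartilage. The count higher was 1 with the offset for GC content and length, and 3 without the libraries labelled Wnt9bKO 2 and DKO 3. In DKO, where *Sox9* did not pass, *Col2a1* was higher (0.43) and *Barx1*, a factor of the facial mesenchyme, was lower (-0.98, adjusted p = 0.0233). Melanoblast genes had 1 higher and 0 lower of 9 tested in both comparisons, the receptor *Kit* (11.1% called in each, against 32.8% and 27.5% of all genes). In Rspo2KO 0 of the 137 genes tested in these 8 lists passed with edgeR, and 24 had an unadjusted p below 0.05, which 11.9% of all genes reached. DESeq2 called 2 (against 1.55% of all genes), *Tfap2c* and *Sox7*, of which *Tfap2c* is named after its value was seen. The 8 lists together had, without the libraries labelled Wnt9bKO 2 and DKO 3, 31 higher and 9 lower in Wnt9bKO, against 26 and 10 with all libraries, and 27 higher and 10 lower in DKO, against 24 and 9. Without this pair, 29.7% of all genes passed in Wnt9bKO and 25.6% in DKO, against 32.8% and 27.5% with all libraries. In that fit cartilage genes were higher for 3 and lower for 1 in DKO, the SOX family higher for 9 and lower for 0, glial precursor genes higher for 4 and lower for 0, and 3 higher and 3 lower of the ERBB genes in Wnt9bKO.

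**Figure D4:**
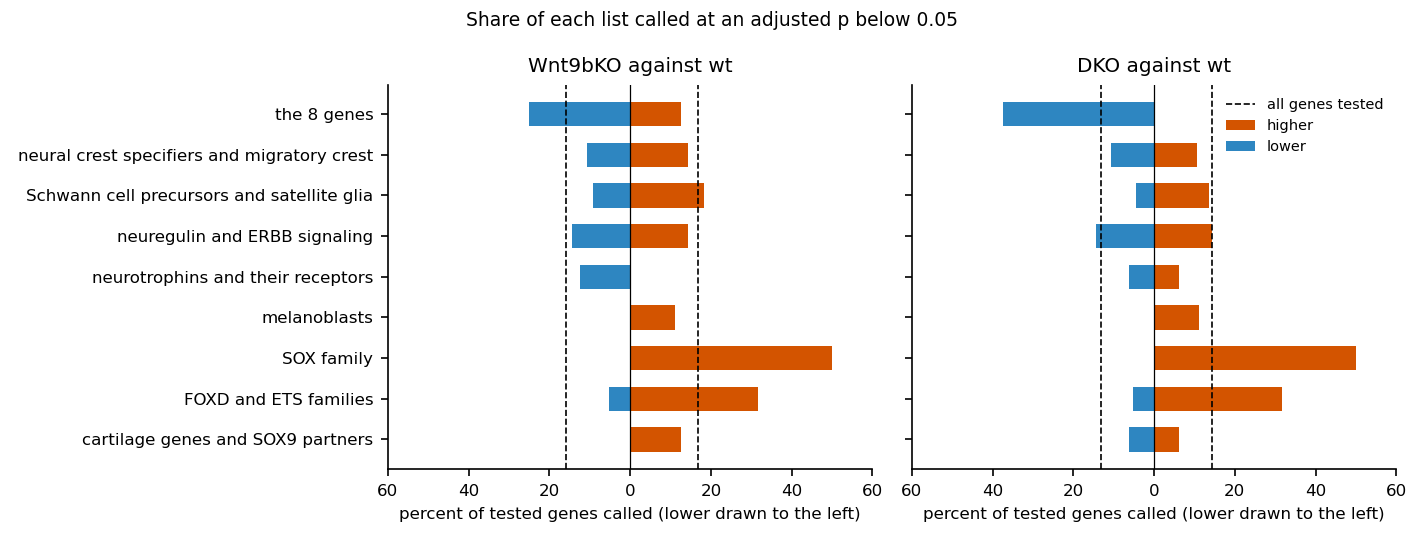
Percent of the tested genes of each list that passed an adjusted p below 0.05 in Wnt9bKO and DKO against wt; bars to the right count genes higher and bars to the left genes lower than wt, and dashed lines mark the percent over all genes tested (16.8 higher and 16 lower in Wnt9bKO, 14.3 and 13.1 in DKO). The bar of the SOX family reaches 50 percent on the higher side in both, and that of the 8 genes 37.5 percent on the lower side in DKO.

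Markers of the cell types an explant could hold were summed in each library. For the counts of markers here and in the next paragraph, 16.8% of all genes rose and 16% fell in Wnt9bKO. In DKO 14.3% of all genes rose and 13.1% fell. The 8 glial markers, 3 of which are members (*Sox10*, *Erbb3* and *Foxd3*), summed to 124 and 146 CPM in wt, 104, 74.9 and 97.6 in Wnt9bKO, 160.4, 172 and 175 in Rspo2KO, and 122, 116 and 134 in DKO, and *Fabp7* was the most abundant. The differences in this sum came from *Fabp7*, at 59.5 and 77.0 CPM in wt, 39.1, 18.9 and 30.4 in Wnt9bKO, 86.1, 104.4 and 111 in Rspo2KO, and 52.6, 53.9 and 67.9 in DKO. The other 7 glial markers summed to 64.2 and 69.4 CPM in wt, 64.6, 56.0 and 67.3 in Wnt9bKO, 74.3, 67.3 and 63.6 in Rspo2KO, and 69.2, 61.8 and 65.9 in DKO, so without *Fabp7* every mutant group overlapped wt. Of the 8 glial markers, 2 fell in Wnt9bKO, *Fabp7* and *Sox10* itself, and 1 in DKO, *Sox10*. The 16 markers of cranial ganglion neurons, led by *Tubb3*, summed to 787 and 872 CPM in wt, 772, 486 and 694 in Wnt9bKO, 1069, 921 and 1029 in Rspo2KO, and 918, 1012 and 938 in DKO. Of these, 5 fell and 0 rose in Wnt9bKO while 5 rose and 0 fell in DKO, so these markers did not go down with *Ngfr* in DKO. The library of lowest *Ngfr*, *Sox10* and glial sum, Wnt9bKO 2, also had the lowest neuronal sum.

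The 15 markers of facial ectomesenchyme, led by *Prrx1*, summed to 1177 and 1105 CPM in wt, 1416, 814 and 1098 in Wnt9bKO, 924, 877 and 956 in Rspo2KO, and 1058, 942 and 1030 in DKO, with 0 of 15 higher and 0 lower in Wnt9bKO, and 0 higher and 2 lower in DKO, *Lhx8* (log2 fold change -0.90) and *Prrx2* (-0.61). The 12 markers of forebrain and eye neuroepithelium, led by *Pax6*, summed to 154 and 133 CPM in wt, 181, 340.4 and 230 in Wnt9bKO, 187, 174 and 159.6 in Rspo2KO, and 253, 238 and 198 in DKO. This sum was above wt in all 9 mutant libraries, as *Sox9* was, and 9 of the 12 rose in Wnt9bKO and 7 in DKO. The 9 erythroid markers, led by *Hbb-y*, summed to 3974 and 4937 CPM in wt, 2377, 1794 and 2357 in Wnt9bKO, 4495, 4869 and 5810 in Rspo2KO, and 2045, 1747 and 2854 in DKO, which separates the genotypes as *Ngfr* does. The 14 endothelial markers, led by *Kdr*, summed to between 270.1 and 319.8 CPM in every library. This sum held opposite changes, with 3 of 13 tested higher and 4 lower in Wnt9bKO and 3 higher and 3 lower in DKO, such as *Kdr* (log2 fold change 0.62 in Wnt9bKO and 0.48 in DKO) and *Egfl7* (-0.57 and -0.62). The 12 markers of surface epithelium, led by *Krt8*, summed to between 259 and 312. The 8 macrophage markers, led by *Mrc1*, summed to 63.5 and 55.7 CPM in wt, 51.9, 36.5 and 45.6 in Wnt9bKO, 58.3, 58.6 and 70.1 in Rspo2KO, and 58.7, 57.6 and 55.2 in DKO. Heart markers, led by *Myh7*, summed to 37.4 CPM in wt 1 and to between 1.76 and 5.32 in the other libraries, so wt 1 stood apart from wt 2 in these. *Etv2* was at or near 0 among the endothelial markers. The 8 otic markers, whose tissue also has SOX8, SOX9 and SOX10, summed to between 5.29 and 7.94 CPM in every library, with *Otol1* at or near 0 and *Gbx2* the most abundant, and 5 of the 8 were too low to be tested. In the fit without the libraries labelled Wnt9bKO 2 and DKO 3, 1 of the neuronal markers rose and 4 fell in Wnt9bKO, and 10 of the forebrain and eye markers rose in DKO. In that fit 4 of the 9 erythroid markers fell in Wnt9bKO and 6 in DKO, against 5 and 8 with all libraries. The part of these cell types in the changes of the members was not tested.

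**Figure D5:**
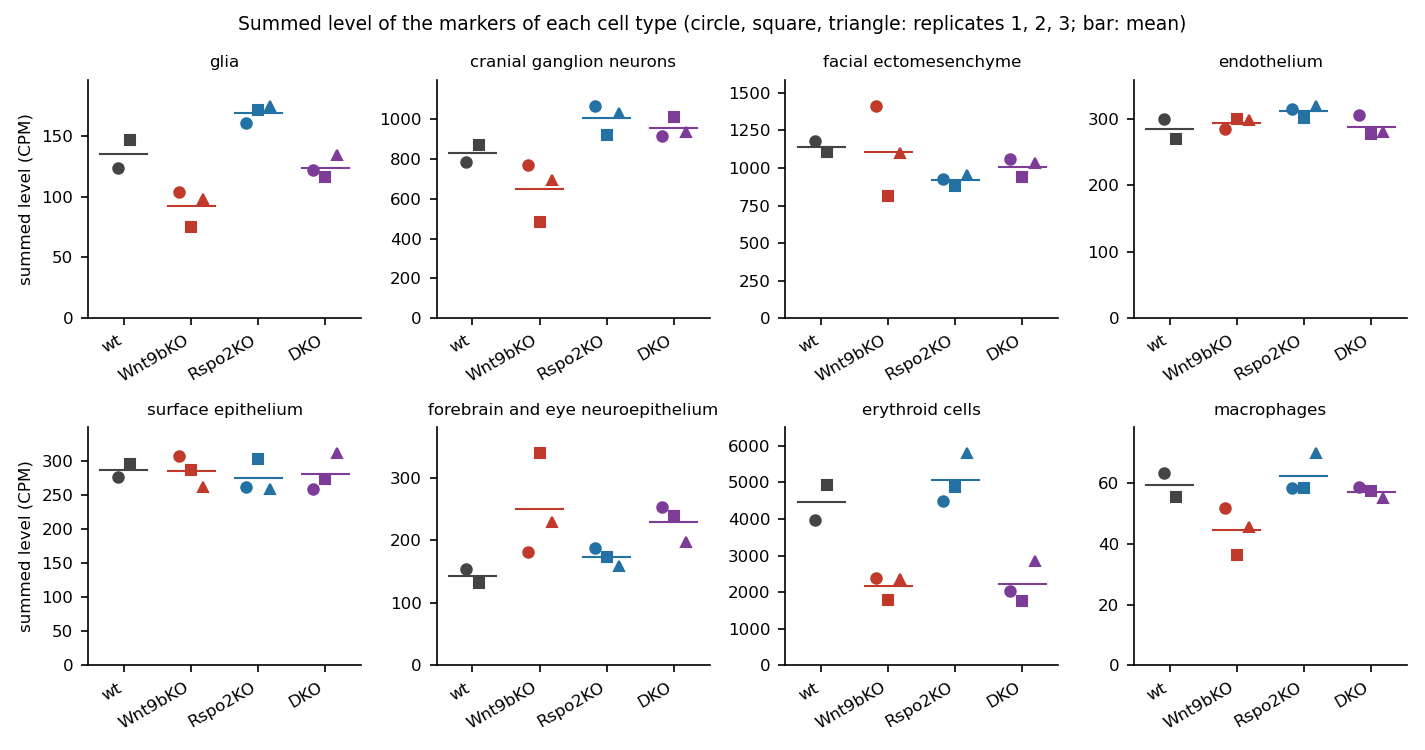
Summed level of the markers of 8 cell types (vertical axis, CPM from 0) in each library, by genotype; a point is a library, its shape the replicate number, and a bar the group mean. The glial sum lies between 74.9 and 104 CPM in Wnt9bKO, below wt at 124 and 146, through its gene *Fabp7*, and erythroid markers are lower in the Wnt9bKO and DKO libraries than in wt and Rspo2KO.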

How the data were processed

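RNA was measured in 11 libraries of mouse facial processes. The values are integer read counts per gene that the authors deposited. Per the submitters' processing notes reads were handled with cutadapt, STAR, HTSeq and DESeq2 on GRCm38; versions, annotation release and strand setting are not given in the sources used here. Members were matched by symbol through the annotation. Genes were filtered with filterByExpr, scaled by TMM and fitted with the quasi-likelihood model of edgeR 4.0.16 (limma 3.58.1, R 4.3.3) with 1 coefficient per genotype label, and p-values were adjusted by Benjamini-Hochberg over all genes tested. The pipeline was tested on simulated data. Members and lists were chosen with earlier results of these data known. Genes named beside the members were taken from these: per list, the gene of highest wt level per kb and up to 2 called genes of smallest p in each mutant against wt, the 5 genes with a mean of at least 1 CPM most like *Sox10* and the 5 most like *Sox9*, and label checks; not every gene this rule gives is printed. The most abundant marker of a cell type, markers at or near 0 and *Tfap2c* were named after their values were seen. Alternatives were DESeq2 1.42.0, other scaling, other filters, the compared groups alone, the replicate number as a block, an offset for GC content and length, autosomal coding genes, other call rules, and leaving out libraries.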

Additional observations from a re-analysis of the deposited data

How the results depend on the processing

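The count of members called was 3 in Wnt9bKO against wt, 2 with the offset for GC content and length and the replicate block together, 2 without the libraries labelled Wnt9bKO 2 and DKO 3, and 0 by a test against a 1.5-fold change; leaving out 1 library gave 1 to 3. In Rspo2KO against wt the count was 0, and 1 with no filter on low counts and by the rule of the study (0 with any library left out). In DKO against wt the count was 3, 4 with no filter and with only the groups compared, 2 with upper-quartile factors, at least 10 counts in every library, autosomal coding genes, and without the libraries labelled Wnt9bKO 2 and DKO 3, and 1 with the offset for GC content and length, 1 with that offset and the replicate number as a block, 0 by the rule of the study and 0 against a 1.5-fold change (1 to 3 with a library left out). In DKO against Rspo2KO the count was 1, and 2 with only the groups compared, 0 by the rule of the study, 0 against a 1.5-fold change and 0 without the libraries labelled Wnt9bKO 2 and DKO 3 (0 to 2 with a library left out). In Wnt9bKO against Rspo2KO the count was 1, and 2 with at least 10 counts in every library, with the replicate block, with the offset, with both, and with autosomal coding genes, and 0 against a 1.5-fold change (1 to 2 with a library left out). The interaction had a count of 0, and 1 with no filter and by the rule of the study. DKO against Wnt9bKO had 0 throughout. The share of all genes called at an adjusted p below 0.05 moved too. The ranges that follow keep all libraries and leave aside the test against a 1.5-fold change. In Wnt9bKO against wt the share ran from 20.8% with no filter to 37.3% with at least 10 counts in every library. In DKO against wt it ran from 18.1% with no filter to 34.6% with only the groups compared. It ran from 12.6% to 21.5% in DKO against Rspo2KO and from 17.1% to 29.6% in Wnt9bKO against Rspo2KO. Leaving out 1 library went beyond these ranges. In DKO against Rspo2KO the share was 9.75% without Rspo2KO 3 and 23.2% without Rspo2KO 1. In Wnt9bKO against Rspo2KO it was 15.2% and 30.6% without the same libraries. Without wt 1 it was 17.6% in Wnt9bKO and 12.7% in DKO against wt. The cause was not tested.

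With the replicate number as a block the counts were 4 in Wnt9bKO and 2 in DKO against wt. The labels share only a number: of 15 same-numbered pairs of libraries 3 had r above 0.1, with a median r of 0.066 against -0.024 for other numbers, and 8 of 11 libraries were most like one of their own number in another genotype. No pairing was assumed. Of the single fold changes of the members, 1216 kept their sign and their side of the threshold, 48 lost a call, 21 gained one, and 51 changed sign or reached 0 without a call in either fit.

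A lone wt library, where the other was left out, was assumed to vary like the other groups. The fit of only the groups compared gives no interaction. With 2 wt libraries, a single one can decide a call, and *Foxd3* at 21 to 49 counts is the member that depth limits most.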
